A study of Mus musculus with 2 samples.

Results

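The genes described here make long-chain fatty acids and put double bonds into them: Acly, Acaca and Fasn, which build palmitate, Elovl5 and Elovl6, which lengthen fatty acids, Scd1, Scd2, Fads1 and Fads2, which desaturate them, and Srebf1, a transcription factor of the pathway. All 10 were found by gene name among the 23288 genes of the deposited tables, and all 10 passed the minimum level used here. They were selected on their place in the pathway and on their RPKM in both genotypes, which had been seen before, so every difference between genotypes is given as a description. The measurements came from 1 Nedd4-/- library and 1 Nedd4+/+ library of splenic B cells, both from fetal liver chimeric mice of a B6:129 background crossed back to B6. Nedd4 encodes a ubiquitin ligase, an enzyme that tags other proteins with ubiquitin. In fetal liver chimeras the blood cells derive from transplanted fetal liver cells. Both cultures had received LPS, a bacterial activator of B cells, and the cytokine IL-4 for 72 hours, to stimulate class switching to IgG1. The sources used here do not state the age or sex of the mice or whether animals were pooled. With 1 library per genotype there was no replicate check and no test. In bulk RNA, fewer cells of a type and less RNA per cell cannot be told apart.

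Fatty acid synthesis starts in the cytosol, where ATP citrate lyase turns citrate into acetyl-CoA and acetyl-CoA carboxylase turns that into malonyl-CoA. Fatty acid synthase then joins these units into palmitate, which elongases extend and desaturases convert into unsaturated fatty acids. Many genes of the pathway are targets of the SREBP transcription factors, membrane proteins that are cut and move to the nucleus when sterols are low. Activated B cells that divide and build membranes need such lipids.

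All 10 genes were lower in the Nedd4-/- library, and the stearoyl-CoA desaturase pair was furthest apart. Scd2 reached 11.4 RPKM (read counts scaled to transcript length and library size) in the Nedd4-/- library and 55.3 RPKM in the Nedd4+/+ library, and Scd1 reached 15.0 RPKM in the Nedd4-/- library and 53.1 RPKM in the Nedd4+/+ library. Fads2 followed, at 2.04 RPKM in the Nedd4-/- library and 7.69 RPKM in the Nedd4+/+ library. Acaca, the acetyl-CoA carboxylase gene, was the least apart, at 3.09 RPKM in the Nedd4-/- library and 4.69 RPKM in the Nedd4+/+ library. Summed over the 10 genes, the level was 89.9 RPKM in the Nedd4-/- library and 230.7 RPKM in the Nedd4+/+ library, or 39.0% of it, whereas the sum over all genes in the Nedd4-/- library was 77.9% of that in the Nedd4+/+ library.

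Sequence is shown for 4 stretches, because the first lies inside the gene that was furthest apart and the others carry motif matches in front of members. The mature microRNA mmu-miR-5114 is annotated inside the last exon of Scd2, on the same strand, and is shown with its seed (bases 2 to 8) in capitals. It occupies chr19:44303171-44303192 on the plus strand of GRCm38 and ends 5 bases before the last coding base of Scd2 in the GENCODE annotation, so that it is coding sequence of that gene. The other sequences are the 250 bases before the transcription start of Fads2 (chr19:10101504-10101753, minus strand), Fasn (chr11:120824548-120824797, minus strand) and Elovl5 (chr9:77917115-77917364, plus strand), from RefSeq on GRCm38.p6. Capitals in them mark matches on either strand to CCAAT, the NF-Y motif, GGGCGG, the Sp1 motif, or CACGTG, a palindromic E-box, with reverse-strand matches to the first reading ATTGG.
mmu-miR-5114: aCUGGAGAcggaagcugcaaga
Fads2: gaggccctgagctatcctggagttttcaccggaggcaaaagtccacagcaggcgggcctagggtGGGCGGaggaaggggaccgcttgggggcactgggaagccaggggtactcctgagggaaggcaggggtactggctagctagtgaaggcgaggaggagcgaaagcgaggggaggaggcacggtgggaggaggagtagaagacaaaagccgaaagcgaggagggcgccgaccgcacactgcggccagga
Fasn: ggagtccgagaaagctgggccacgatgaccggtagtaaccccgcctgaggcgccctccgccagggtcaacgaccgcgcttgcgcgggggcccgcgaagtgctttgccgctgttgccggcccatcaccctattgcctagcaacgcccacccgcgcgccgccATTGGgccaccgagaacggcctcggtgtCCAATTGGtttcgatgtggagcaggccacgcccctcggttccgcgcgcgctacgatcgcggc
Elovl5: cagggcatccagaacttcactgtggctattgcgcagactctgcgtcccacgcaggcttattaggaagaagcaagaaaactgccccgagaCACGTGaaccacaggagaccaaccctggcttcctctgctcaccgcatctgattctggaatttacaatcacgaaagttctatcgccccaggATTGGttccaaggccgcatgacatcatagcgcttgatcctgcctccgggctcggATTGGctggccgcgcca

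The table of promoters held 7 of the 10 members in 9 windows, with no entry for Scd1, Scd2 and Fads1. The core of the sterol regulatory element, searched as TCACNCCAC on both strands, was in none of the 9 windows and in 1.05% of all 32851 windows of the same 250 bases. CCAAT was found in 4 of the 9 windows, those of Fasn and Elovl5 and 2 of the 3 windows of Srebf1, and in 33.8% of all windows. Fasn, the fatty acid synthase gene, had 3 matches, at 90, 62 and 59 bases before the start, the last pair overlapping each other. Elovl5, an elongase gene for polyunsaturated fatty acids, had CCAAT at 71 and 17 bases and CACGTG at 161 bases before the start, where 6.02% of all windows held CACGTG. The motif GGGCGG was found in 4 of the 9 windows, those of Fads2 and Acly and 2 of Srebf1, and in 32.7% of all windows. Fads2 had 1 match, at 186 bases, and Acly had 4 matches, the nearest at 27 bases before the start.

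The library facts that touch these values were as follows. Nedd4 itself was at 1.95 RPKM in the Nedd4-/- library and 7.59 RPKM in the Nedd4+/+ library. Depth, recovered from the steps of the values, was 6.17 gigabases of reads for Nedd4-/- and 8.40 for Nedd4+/+. The share of these that fell in transcripts of known length was 24.4% in the Nedd4-/- library and 32.6% in the Nedd4+/+ library. Markers of fat cells and hepatocytes, 15 genes that B cells lack, had a median of 0.301 RPKM in the Nedd4-/- library and 0.133 RPKM in the Nedd4+/+ library, and none was at 0. Their summed level was 2.58 RPKM for fat cells and 2.01 RPKM for hepatocytes in the Nedd4-/- library, and 1.11 RPKM and 1.03 RPKM in the Nedd4+/+ library. Fat and liver cells make much fatty acid themselves, and their highest markers here were Cidea at 0.430 RPKM and Apoa2 at 0.443 RPKM in the Nedd4-/- library, and Plin1 at 0.305 RPKM and Apoa2 at 0.311 RPKM in the Nedd4+/+ library. B cell markers ranged from 0.646 RPKM (Cr2) to 649.7 RPKM (Cd74) in the Nedd4-/- library and from 1.21 RPKM (Cr2) to 757.8 RPKM (Cd74) in the Nedd4+/+ library. T cell and myeloid markers reached at most 1.08 RPKM (Lck) and 1.01 RPKM (Emr1) in the Nedd4-/- library, and 1.41 RPKM (Lck) and 1.07 RPKM (Cd68) in the Nedd4+/+ library. Erythroid and stromal or endothelial markers reached at most 1.01 RPKM (Alas2) and 1.25 RPKM (Pecam1) in the Nedd4-/- library, and 1.74 RPKM (Hba-a1) and 2.15 RPKM (Pecam1) in the Nedd4+/+ library. Sex-linked genes also differed: Xist was at 0.0958 RPKM in the Nedd4-/- library and 23.7 RPKM in the Nedd4+/+ library, while the Y-linked Ddx3y was at 10.6 RPKM in the Nedd4-/- library and 2.63 RPKM in the Nedd4+/+ library. The Nedd4+/+ library thus held reads of both Xist and a Y-linked gene. Whether its cells came from animals of both sexes was not tested. Sex and genotype cannot be told apart in any difference given here.

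Differences are given below as log2((Nedd4-/- + 1)/(Nedd4+/+ + 1)) in RPKM, called the log2 ratio, which understates the difference of low genes. Counting intervals beside it are for the ratio without an added value, so a log2 ratio can lie outside its interval. The comparison took in 9405 genes whose mean over both libraries was at least 1 RPKM. Their median log2 ratio was -0.31 and the central 90 percent lay between -0.74 and 0.06. All 10 members lay below that median, and their own median was -0.84. Values called relative have this median of -0.31 subtracted. Scd2, Scd1 and Fads2, 3 of the 10 members, were at least 2-fold lower in the Nedd4-/- library, a size reached by 1.15% of all compared genes. No member was at least 2-fold higher, as were 0.138% of all compared genes. Relative to the median the same 3 members remained at least 2-fold lower, beside 0.223% of all genes lower and 0.276% higher. With 0.1 RPKM added in place of 1, Acly, Fads1 and Elovl6 joined them, which made 6 members beside 2.43% of all genes. With 5 RPKM added, Scd2 and Scd1 were the 2 members left, beside 0.287% of all genes. At 1.5-fold, 9 members were lower, with Acaca the exception, beside 11.6% of all genes. Genes of higher level had lower ratios in general: the median was -0.41 for 1088 genes averaging at least 20 RPKM, where 4 members lay, and -0.25 for 4702 genes between 1 and 5 RPKM.

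**Figure D1:**
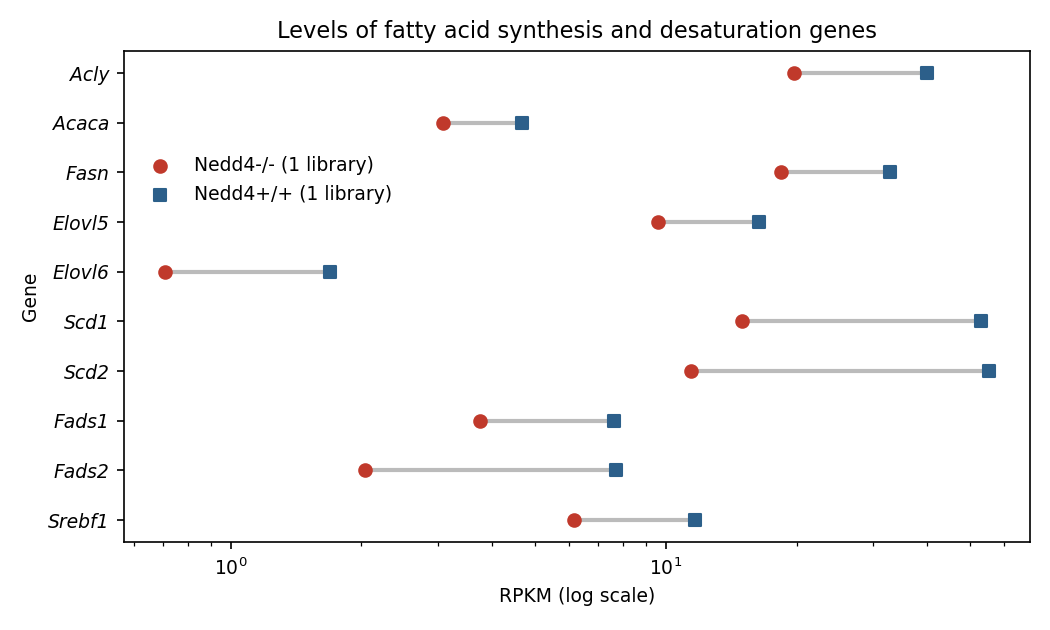
Level of each gene in RPKM on a log axis, with the Nedd4-/- library as circles, the Nedd4+/+ library as squares and a line joining the values of 1 gene. Every circle lies left of its square, and the longest line is that of Scd2, at 11.4 RPKM in the Nedd4-/- library and 55.3 RPKM in the Nedd4+/+ library.

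Of the genes that build palmitate, Acly was furthest apart and Acaca closest to other genes. Acly, the ATP citrate lyase gene, was at 19.7 RPKM in the Nedd4-/- library and 39.9 RPKM in the Nedd4+/+ library. Its log2 ratio was -0.98, or -0.67 in relative terms, and the ratio without an added value had a 95% counting interval of -1.08 to -0.95. Fasn was at 18.5 RPKM in the Nedd4-/- library and 32.7 RPKM in the Nedd4+/+ library. Its log2 ratio was -0.79, with a counting interval of -0.87 to -0.78 without an added value. It was the member covered by most reads, 5664 pairs in the Nedd4-/- library and 13678 pairs in the Nedd4+/+ library. Acaca had a log2 ratio of -0.48, which lay inside the central 90 percent of all genes. Without an added value its ratio was -0.60, with a counting interval of -0.72 to -0.48. Its relative value of -0.16 left it as the 2061st lowest of the 9405 genes, whereas Acly was the 118th and Fasn the 346th. Acacb, the carboxylase gene of mitochondrial outer membranes, was at 0.413 RPKM in the Nedd4-/- library and 0.218 RPKM in the Nedd4+/+ library, near the level of the markers that B cells lack.

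Proportions of genes within 1 library do not depend on how the libraries were scaled, and are given here against Fasn for Acly, Acaca, Scd1 and Scd2. Acly had 1.07 times the RPKM of Fasn in the Nedd4-/- library (95% counting interval 1.02 to 1.12) and 1.22 times in the Nedd4+/+ library (1.18 to 1.25). Acaca had 0.167 times the RPKM of Fasn in the Nedd4-/- library (0.155 to 0.180) and 0.143 times in the Nedd4+/+ library (0.136 to 0.150). The proportions of Scd1 and Scd2 were further apart than those of Acly and Acaca: Scd1 had 0.811 times the RPKM of Fasn in the Nedd4-/- library (0.772 to 0.852) and 1.62 times in the Nedd4+/+ library (1.58 to 1.66). For Scd2 the corresponding values were 0.618 in the Nedd4-/- library (0.587 to 0.652) and 1.69 in the Nedd4+/+ library (1.65 to 1.73). Scd1 and Scd2 thus lay above Fasn in the Nedd4+/+ library and below it in the Nedd4-/- library.

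Both elongase members were lower in the Nedd4-/- library. Elovl5 was at 9.60 RPKM in the Nedd4-/- library and 16.4 RPKM in the Nedd4+/+ library. Its log2 ratio was -0.71, with a counting interval of -0.89 to -0.65 without an added value. Elovl6, which extends palmitate to stearate, was the lowest member in level, at 0.708 RPKM in the Nedd4-/- library and 1.69 RPKM in the Nedd4+/+ library. Its log2 ratio of -0.66 is the one that the added value of 1 RPKM changed most, since the ratio without it was -1.26 (-1.56 to -0.97). After the median level of the fat cell and hepatocyte markers was subtracted in each library, a step chosen after the data were seen, the log2 ratio of Elovl6 was -0.86. Among the 7 elongase genes Elovl1 to Elovl7, Elovl5 held 60.7% of the summed RPKM in the Nedd4-/- library and 67.5% in the Nedd4+/+ library. Elovl1, which acts on very long saturated chains, was at 4.46 RPKM in the Nedd4-/- library and 5.78 RPKM in the Nedd4+/+ library, with a log2 ratio of -0.31 that equals the median of all genes to 2 decimals. Elovl2, Elovl3, Elovl4 and Elovl7 stayed between 0.177 and 0.484 RPKM in the Nedd4-/- library and between 0.0836 and 0.127 RPKM in the Nedd4+/+ library.

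The stearoyl-CoA desaturases, which put the first double bond into palmitate and stearate, were the widest difference among the members. Scd2 had a log2 ratio of -2.18 (-1.87 relative to the median), with a counting interval of -2.35 to -2.21 without an added value. Scd1 had a log2 ratio of -1.76 (-1.45 relative to the median). Without an added value its ratio was -1.83, with a counting interval of -1.89 to -1.76. They were the 5th and 8th lowest of the 9405 genes, while Nedd4 was the 11th and Fads2 the 12th. Scd1 and Scd2 were nearly equal in the Nedd4+/+ library, where Scd2 had 1.04 times the RPKM of Scd1 (1.02 to 1.07), but not in the Nedd4-/- library, where it had 0.763 times (0.717 to 0.811). Scd3 and Scd4, the other genes of the family, stood at 0.368 and 0.328 RPKM in the Nedd4-/- library and at 0.411 and 0.393 RPKM in the Nedd4+/+ library. The summed RPKM of the 4 genes was 27.1 in the Nedd4-/- library and 109 in the Nedd4+/+ library, or 24.8% of it. The family members share sequence, and the sources used here do not say how reads with several matches were placed. Of 4732 runs as long as 1 read in the Scd1 transcript, 47 were also in Scd2, 85 in Scd3 and 16 in Scd4. Of 5355 such runs in the Scd2 transcript, 47 were in Scd1, 25 in Scd3 and 0 in Scd4, so that most runs of either gene had no copy in the family members compared.

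A second entry of the files lies inside Scd2. The hairpin of Mir5114, 61 nt long, lies in exon 6 of 6 of Scd2 at chr19:44303171-44303231 (GRCm38, plus strand), and its mature sequence is the first of those shown above. Its level was 15.6 RPKM in the Nedd4-/- library and 68.1 RPKM in the Nedd4+/+ library, with a log2 ratio of -2.06 and a counting interval of -2.74 to -1.55 without an added value. The Nedd4-/- level was 22.9% of the Nedd4+/+ level for this stretch and 20.7% for the whole Scd2 transcript. Reads of the microRNA and of the exon around it cannot be told apart in this value, so it is a partial repeat of the Scd2 value and not a measurement of the microRNA.

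**Figure D2:**
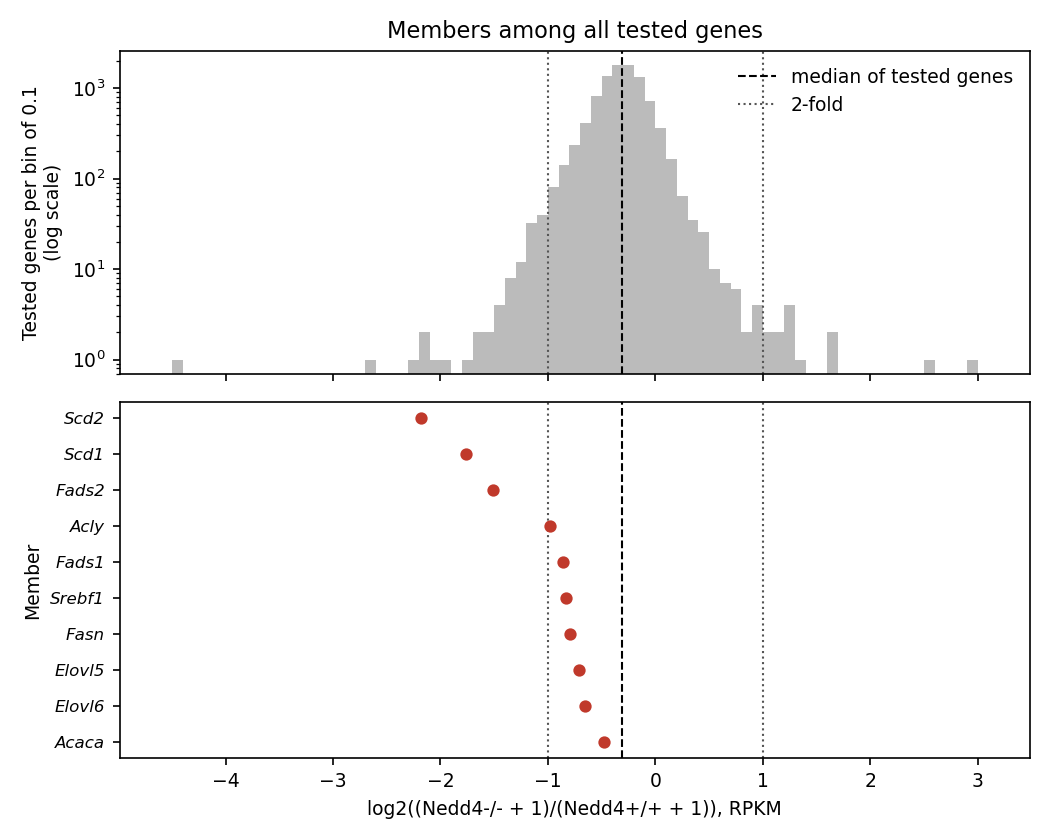
Upper panel, number of compared genes per bin of 0.1 in log2 ratio, on a log axis; lower panel, the log2 ratio of each member as a point, with the median of all 9405 compared genes dashed and 2-fold differences dotted. Scd2 at -2.18, Scd1 at -1.76 and Fads2 at -1.51 lie beyond 2-fold, and the other 7 members lie between -0.98 and -0.48.

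The polyunsaturated fatty acid desaturases differed from each other as well as between libraries. Fads2 carries out the first desaturation step in the conversion of the essential fatty acids linoleic and alpha-linolenic acid, adding a further double bond. The log2 ratio of Fads2 was -1.51 (-1.20 relative to the median), with a counting interval of -2.14 to -1.69 without an added value. Fads1, which acts later in the same chain, was at 3.75 RPKM in the Nedd4-/- library and 7.60 RPKM in the Nedd4+/+ library. Its log2 ratio was -0.86, with a counting interval of -1.19 to -0.85 without an added value. In the Nedd4+/+ library the levels of Fads1 and Fads2 could not be separated by counting, with 0.988 times the RPKM of Fads2 in Fads1 (0.906 to 1.08). In the Nedd4-/- library Fads1 had 1.84 times the RPKM of Fads2 (1.54 to 2.19). Fads3, a related gene, was at 0.764 RPKM in the Nedd4-/- library and 1.29 RPKM in the Nedd4+/+ library, with a log2 ratio of -0.38 that is close to the median of all genes. No run of that length was shared between Fads1, Fads2 and Fads3.

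Srebf1, which encodes SREBP-1, the SREBP form best known for driving fatty acid genes, was at 6.16 RPKM in the Nedd4-/- library and 11.7 RPKM in the Nedd4+/+ library. Its log2 ratio was -0.83, or -0.51 in relative terms, with a counting interval of -1.05 to -0.81 without an added value. Srebf2, the gene of the form best known for sterol genes, was at 8.17 RPKM in the Nedd4-/- library and 14.4 RPKM in the Nedd4+/+ library, with a log2 ratio of -0.75. The proportion of Srebf1 to Srebf2 was 0.753 in the Nedd4-/- library (0.689 to 0.823) and 0.812 in the Nedd4+/+ library (0.767 to 0.859), intervals that overlap. The summed level of this pair in the Nedd4-/- library was 54.9% of that in the Nedd4+/+ library.

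Other genes of lipid metabolism were compared in lists that were drawn up with earlier results of these data known. Without the members, 7 of 11 genes that supply or use acetyl-CoA and malonyl-CoA for palmitate could be compared. Their median log2 ratio was -0.39. None was 2-fold apart, beside 1.15% of all compared genes lower and 0.138% higher. The furthest were Mid1ip1, a regulator of acetyl-CoA carboxylase, at 4.42 RPKM in the Nedd4-/- library and 9.69 RPKM in the Nedd4+/+ library (-0.98), and Slc25a1, the mitochondrial citrate carrier, at 5.90 RPKM in the Nedd4-/- library and 12.4 RPKM in the Nedd4+/+ library (-0.96). Both were about as far below the median as Acly, whose substrate, citrate, Slc25a1 exports. By contrast Acss2, which makes acetyl-CoA from acetate, was at 1.21 RPKM in the Nedd4-/- library and 1.49 RPKM in the Nedd4+/+ library (-0.17). Of the genes that supply NADPH, 6 of 7 were compared with a median of -0.35, and the furthest was Idh1, the cytosolic isocitrate dehydrogenase gene, at -0.75. The other enzymes of the elongation cycle lay near the median of all genes: without Elovl5 and Elovl6, 4 genes had a median of -0.37, from Tecr, the last reductase of the cycle, at -0.63 to Ptplad1 at -0.18. The electron donors of the desaturases were also closer to other genes than Scd1 and Scd2 were, with Cyb5r3 at -0.60, Cyb5b at -0.52 and Cyb5 at -0.21.

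Genes that control SREBP and sterol genes that it drives were compared as separate lists. Without Srebf1, 14 of 16 genes of SREBP, ChREBP and LXR control were compared, with a median of -0.47. In the Nedd4-/- library 1 was at least 2-fold lower, 0 in relative terms, and 0 were higher. That gene was Insig1, which holds SREBP in the endoplasmic reticulum and is itself an SREBP target, at 14.2 RPKM in the Nedd4-/- library and 35.2 RPKM in the Nedd4+/+ library (-1.25). Mbtps1, a protease that cuts SREBP, had a log2 ratio of -0.62. Of 15 sterol genes that SREBP-2 is known to drive, 13 were compared, with a median of -0.97. All 13 were under the overall median, and 6 reached a 2-fold lower level in the Nedd4-/- library, as did 1.15% of all compared genes. After the overall median was subtracted 2 of them did, beside 0.223% of all genes: Fdps and Lss, which act in sterol synthesis, at -1.02 and -1.01. The median of the 10 members, -0.84, lay between that of the sterol genes and that of all genes. Nr1h3, which encodes the liver X receptor alpha, was at 0.506 RPKM in the Nedd4-/- library and 0.240 RPKM in the Nedd4+/+ library, near the level of silent markers, while Nr1h2, the beta form, was at 3.90 RPKM in the Nedd4-/- library and 4.42 RPKM in the Nedd4+/+ library. Mlxipl, the gene of ChREBP, was likewise low, at 0.395 RPKM in the Nedd4-/- library and 0.182 RPKM in the Nedd4+/+ library.

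Most genes that break fatty acids down lay on the other side of the median. Of 24 genes of fatty acid oxidation, 17 were compared, 13 were over the overall median and 4 under it. None was 2-fold apart, beside 1.15% of all compared genes lower and 0.138% higher. The median log2 ratio of the list was -0.11, or 0.20 in relative terms. Acadl, a long-chain acyl-CoA dehydrogenase, was at 6.26 RPKM in the Nedd4-/- library and 4.79 RPKM in the Nedd4+/+ library (0.33), and Slc25a20, the acylcarnitine carrier of mitochondria, at 5.73 RPKM in the Nedd4-/- library and 4.38 RPKM in the Nedd4+/+ library (0.32). Cpt1a, the gene of the step that admits fatty acids to mitochondria, was at 1.51 RPKM in the Nedd4-/- library and 1.18 RPKM in the Nedd4+/+ library (0.20). The exceptions below the median were Hadha at -0.64 and Acadvl at -0.59, of long-chain oxidation, and Etfb at -0.47 and Etfdh at -0.40, which pass on electrons. Etfb, Hadha and Acadvl had the highest mean levels of the compared genes in this list, and genes of higher level had lower ratios in general. The part of level, or of the higher silent marker level in the Nedd4-/- library, in this contrast was not tested.

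**Figure D3:**
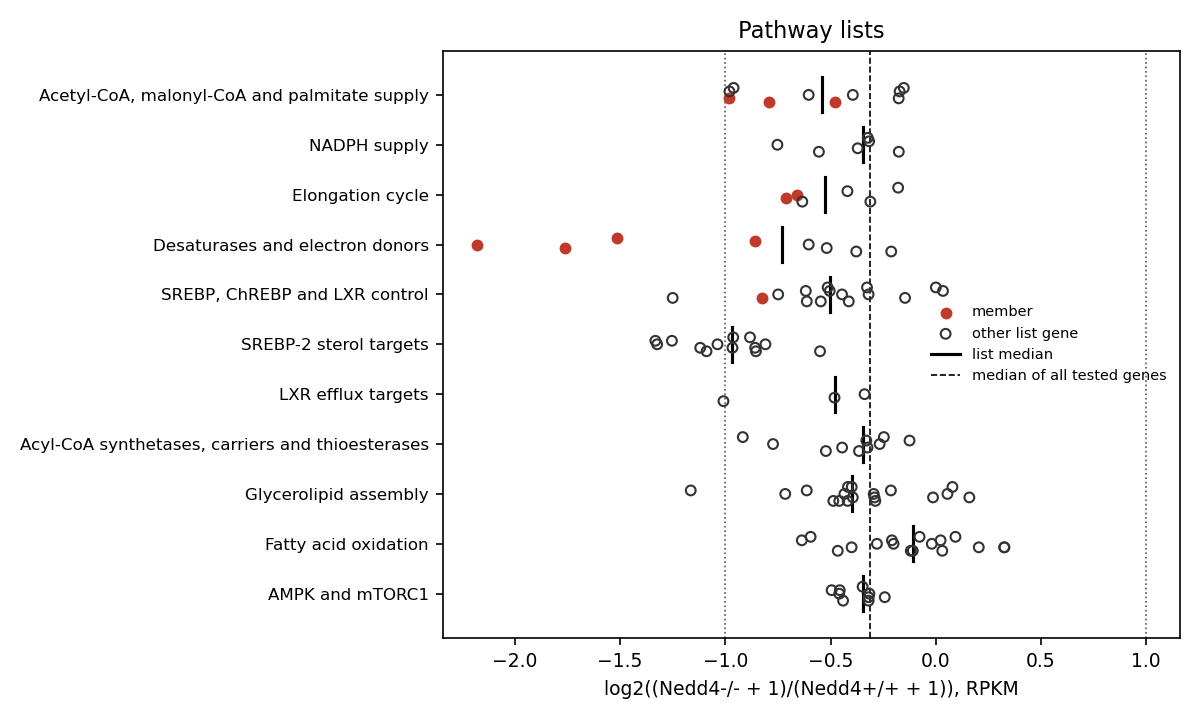
Log2 ratio of every compared gene in 11 lists of lipid metabolism, 1 list a row, with members as filled circles, other genes as open circles and the list median as a bar. The dashed line is the median of all compared genes at -0.31 and dotted lines mark 2-fold. The desaturase members and the sterol genes reach furthest left, and most genes of fatty acid oxidation lie right of the dashed line.

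Genes of plasmablasts, the antibody-secreting cells that form in such cultures and enlarge their membranes, were lower along with the members. Of 9 markers 8 were compared, all 8 were under the overall median, and Derl3 and Igj were at least 2-fold lower, as were 1.15% of all compared genes. In relative terms Derl3 was the 1 marker left, beside 0.223% of all genes. The markers' median log2 ratio was -0.78. The summed level of the markers was 248 RPKM in the Nedd4-/- library and 476 RPKM in the Nedd4+/+ library, with a range over the markers of 1.75 to 96.4 RPKM in the Nedd4-/- library and 2.70 to 216 RPKM in the Nedd4+/+ library. Igj, the joining chain of secreted antibodies, was at 96.4 RPKM in the Nedd4-/- library and 216 RPKM in the Nedd4+/+ library. Xbp1, a transcription factor of secretory cells, was at 83.8 RPKM in the Nedd4-/- library and 132 RPKM in the Nedd4+/+ library (-0.64). None of the markers was at 0. The part of such cells in the levels of the lipid genes was not tested. Markers of B cells in general had a median of -0.42 over 9 compared genes, 5 of them under and 4 over the overall median.

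Of the 10 members, 4 lie on chromosome 19 and 4 on chromosome 11. The median log2 ratio was -0.33 for 353 genes of chromosome 19 and -0.31 for 797 genes of chromosome 11, close to that of all genes. Taking the 3 nearest compared genes on each side of each member gave 49 distinct genes that are no members, with a median log2 ratio of -0.30. Of these 2 were at least 2-fold lower, as were 1.15% of all compared genes, and 0 higher, beside 0.138%. Of the 2, Mir5114 lies inside Scd2 and is no separate neighbour. The other was Slc16a3, next to Fasn, which encodes a lactate exporter and was at 0.941 RPKM in the Nedd4-/- library and 7.87 RPKM in the Nedd4+/+ library, with a log2 ratio of -2.19. Between Scd2 and Scd1 on the chromosome no other compared gene lay apart from Mir5114, and the genes flanking the pair, Bloc1s2a and Ndufb8, had log2 ratios of -0.30 and -0.27. Next to Fads1 lay Fen1, a replication and repair nuclease gene, at -0.53, and next to Fads2 lay Fads3.

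**Figure D4:**
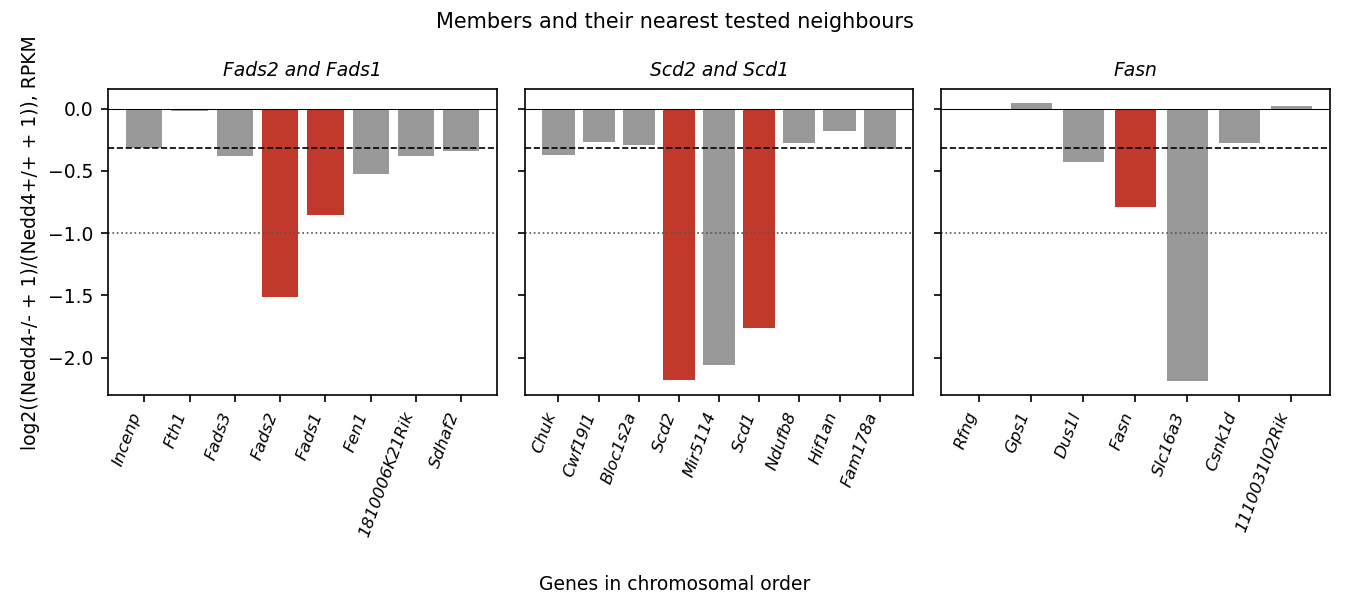
Log2 ratio of Fads2 and Fads1, Scd2 and Scd1, and Fasn (red) with the nearest compared genes on each side (grey) in chromosomal order, the dashed line at the median of all compared genes and the dotted line at 2-fold. Outside the members, Mir5114 at -2.06 and Slc16a3 at -2.19 are the bars beyond 2-fold.

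Over both libraries, the genes averaging at least 5 RPKM with log2 ratios nearest to that of Scd2 included Lars2, a mitochondrial leucyl-tRNA synthetase gene (-2.26), and Mir5114. Those nearest to Scd1 included Sla, an adaptor gene of antigen receptor signalling (-1.63), and Mir5114. The absolute gaps in log2 ratio to Scd2 were 0.08 for Lars2 and 0.12 for Mir5114. Because Mir5114 lies inside Scd2 and partly repeats its value, its nearness to Scd2 is not that of a separate gene. With 2 libraries such likeness rests on 1 difference per gene.

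The 1 kb upstream of each gene gave a second readout at the same loci. These windows held few reads, between 6.34 and 26.9 pairs per member in the Nedd4-/- library and between 4.35 and 42.9 pairs in the Nedd4+/+ library. The median over all windows was 0.267 RPKM in the Nedd4-/- library and 0.134 RPKM in the Nedd4+/+ library. Upstream of Scd1 the level was 0.603 RPKM in the Nedd4-/- library and 0.656 RPKM in the Nedd4+/+ library, and upstream of Scd2 it was 0.258 RPKM in the Nedd4-/- library and 0.407 RPKM in the Nedd4+/+ library. The highest window was that of Srebf1, at 0.880 RPKM in the Nedd4-/- library and 1.03 RPKM in the Nedd4+/+ library. Without an added value, the log2 ratio upstream of Scd1 had a counting interval of -1.06 to 0.79 and that upstream of Scd2 of -2.09 to 0.64, so a difference at the windows was not detectable at this depth. Neither interval includes the ratio of its own gene, -1.83 for Scd1 and -2.28 for Scd2. The intervals do not take out a shift between the readouts, since the median log2 ratio was 0.41 over all windows and -0.31 over all genes. Relative to all windows, with 0.1 RPKM added, the window of Scd1 was at -0.52 and that of Scd2 at -0.92. Whether windows and genes differed beyond that shift was not tested.

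On a log2 scale with 0.1 RPKM added, 9 of the 10 windows had a mean of 0.2 RPKM or more, the exception being Fads1. Of these, 5 were below 0 and 4 above, with a median of -0.10, against a median of 0.41 over 11837 windows. At least 2-fold higher was 1 window, that of Elovl5, at 0.335 RPKM in the Nedd4-/- library and 0.105 RPKM in the Nedd4+/+ library, a size reached by 19.8% of all windows. Its counting interval without an added value, -0.06 to 3.71, included 0. None was at least 2-fold lower, as were 0.794% of all windows. Upstream of Fasn the level was 0.549 RPKM in the Nedd4-/- library and 0.321 RPKM in the Nedd4+/+ library, higher where the gene was lower. The counting interval of that log2 ratio without an added value was -0.35 to 1.93. Relative to their gene, the windows held between 2.26% (Scd2) and 42.0% (Elovl6) of the gene's RPKM in the Nedd4-/- library and between 0.640% (Elovl5) and 11.5% (Elovl6) in the Nedd4+/+ library. The Elovl6 window in the Nedd4-/- library, at 0.297 RPKM, was near the median of all windows, 0.267 RPKM, beside a gene of 0.708 RPKM. Such shares rise where genes are lower or windows in general are higher, and both held in the Nedd4-/- library.

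**Figure D5:**
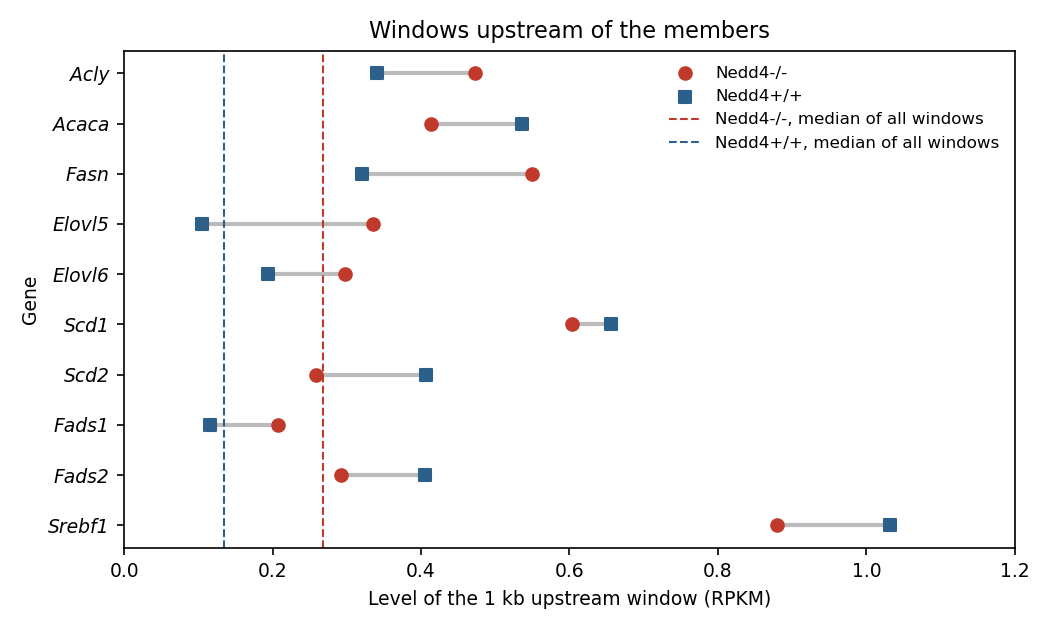
Level of the 1 kb window upstream of each gene in RPKM, with the Nedd4-/- library as circles and the Nedd4+/+ library as squares; dashed lines give the median of all windows in each library. The windows of Scd1 and Srebf1 lie furthest right, and circles lie right of squares at 5 genes, Acly, Fasn, Elovl5, Elovl6 and Fads1.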

How the data were processed

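RNA depleted of ribosomal RNA had been sequenced from 1 Nedd4-/- and 1 Nedd4+/+ culture, grouped by title. Per the submitters' processing notes, TopHat, Cufflinks and mm9 were used, with no version or role given. Strand use was not given. Per the file headers, the authors deposited RPKM, 1 RefSeq transcript for each gene. The deposited upstream column proved to be a ratio, the window's level over the gene's RPKM plus 0.0001: multiplied back, low windows gave whole numbers of read bases, within 0.05, in 100% of 17714 cases for Nedd4-/- and 99.99% of 18656 cases for Nedd4+/+. The product, in RPKM, was used. The design had allowed for either form.

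Pairs are recovered bases over the 202 bases of a read pair, with lengths from GENCODE vM21 transcripts matched on RefSeq identifiers (97.1% of genes). Paired reads of 101 nt were inferred from the steps of the values. Pair counts, intervals and shared runs rest on that inference. Intervals are exact Clopper-Pearson 95% intervals on pairs. Counting error is all that they cover, because PCR copies of a molecule could not be removed. Gene order came from RefSeq on GRCm38 (98.2% of genes matched). The reference is not mm9, so it gave no coordinates for measured values. The functions were tested on simulated data. Python 3.11.15, numpy 2.4.6, pandas 2.3.3, scipy 1.17.1 and matplotlib 3.10.9 were used.

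The members and lists were chosen with earlier results of these data known. Named genes are the members, up to 4 further genes per list by absolute log2 ratio, the genes nearest to Scd1 and Scd2, neighbours past 2-fold and the highest markers. Family members of the enzymes, flanking genes, other markers, Acss2, Acadl, Slc25a20, Cpt1a, Nr1h2, Nr1h3, Mlxipl, Xist and Ddx3y were named after their values were seen. Alternatives varied the added value, scaling, minimum level, fold and background. Protein sequences were not used here, and some genes that the naming rule selects are not reported here.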

Additional observations from a re-analysis of the deposited data

How the results depend on the processing

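All 10 members kept a log2 ratio below 0 in the 50 member values computed under other added values, scalings and background. Only the scalings could have changed a sign. A value added to both libraries cannot, and the background subtracted was larger in the Nedd4-/- library, which can only lower these ratios. Their median was -1.01 with 0.1 RPKM added, -0.63 with 5 RPKM added, -0.53 relative to the median of all genes and -0.53 with RPKM divided by the library sum. Members at least 2-fold apart numbered 6 with 0.1 RPKM added and 2 with 5 RPKM added, against 3. The shares of all genes at least 2-fold lower were 2.43% and 0.287%, against 1.15%. With a mean of at least 5 RPKM required, 2 members were left, since Fads2 fell under that minimum. Of genes averaging 5 to 20 RPKM 1.27% were at least 2-fold lower, and of those at 20 RPKM or more 3.03%. At least 1.5-fold lower were 9 members, beside 11.6% of all genes. Genes of the lists without members at least 2-fold apart numbered 18 with 0.1 RPKM added, 1 with 5 RPKM added, 2 relative to the median and 2 with the library sum, against 9. For the first 3 of these settings the shares of all genes at least 2-fold lower were 2.43%, 0.287% and 0.223%, against 1.15%. The median of fatty acid oxidation turned to 0.20 under both scalings, by their construction, and no other list median changed sign. The proportion of Elovl5 to Elovl6 was higher in the Nedd4-/- library by 0.49 on the log2 scale, but changed by -0.054 with 1 RPKM added to each value. No upstream window of a member was at least 2-fold apart with 1 RPKM added (0) or relative to the median of windows (0), against 1. Subtracting the level of silent markers, chosen after seeing the data, left 3 members at least 2-fold apart. No share of all genes is given for that setting or for the library sum. The counts under these settings therefore have nothing to be set against. With 1 library per genotype no replicate could be left out. No paired analysis was possible because each genotype had 1 library. Few read pairs limit the upstream windows and Elovl6, and its short length limits the value of Mir5114.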

Other observations

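Further lists of lipid metabolism were compared in the same way. Of 20 genes of glycerolipid assembly, 18 were compared with a median log2 ratio of -0.40. In the Nedd4-/- library 1 was at least 2-fold lower, 0 in relative terms, beside 1.15% of all compared genes. That gene was Agpat4, an acyltransferase gene of phospholipid synthesis, at 2.62 RPKM in the Nedd4-/- library and 7.11 RPKM in the Nedd4+/+ library (-1.16). Agpat3 was at -0.72 and Pcyt2, of phosphatidylethanolamine synthesis, at -0.61. Of 13 acyl-CoA synthetases, carriers and thioesterases, 10 were compared with a median of -0.35. None was 2-fold apart, beside 1.15% of all compared genes lower and 0.138% higher. Acsl5, the most abundant of these synthetases, was at 36.5 RPKM in the Nedd4-/- library and 50.1 RPKM in the Nedd4+/+ library (-0.44), while Acsl3, which activates fatty acids at the endoplasmic reticulum and lipid droplets, was at 4.24 RPKM in the Nedd4-/- library and 8.89 RPKM in the Nedd4+/+ library (-0.92).

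Abcg1, a sterol exporter and target of liver X receptors, was at 0.663 RPKM in the Nedd4-/- library and 2.35 RPKM in the Nedd4+/+ library (-1.01). It was the 1 gene of 3 compared in its list that was at least 2-fold lower, beside 1.15% of all compared genes. In relative terms 0 of the 3 were. Lpcat3, a phospholipid acyltransferase that the same receptors drive, was at -0.48 and Mylip, a ubiquitin ligase gene, at -0.34. Of 11 genes of AMPK and mTORC1 signalling, 9 were compared, with a median of -0.35 and log2 ratios down to -0.49 for Mtor. None of the 104 compared genes of the lists outside the members was at least 2-fold higher, a size reached by only 0.138% of all compared genes.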
